A study of Drosophila melanogaster with 8 samples.

Results

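The peptidoglycan recognition protein (PGRP) family of Drosophila senses and degrades peptidoglycan, the cell wall polymer of bacteria. Membrane and intracellular receptors of the family switch on the Imd pathway, a secreted receptor feeds into the Toll pathway, and amidases of the family cleave peptidoglycan into fragments that no longer stimulate the receptors. In the fly gut the receptors and amidases act in balance, so that resident or swallowed bacteria do not drive a lasting antimicrobial response. The tracheal system, which carries air to the gut, is a barrier epithelium with Imd signalling of its own. The 8 genes described here were chosen by name and function, with earlier results of these data known. The 5 receptor genes are PGRP-LC, PGRP-LE, PGRP-LF, PGRP-SA and PGRP-SD, and the 3 amidase genes are PGRP-LB, PGRP-SB1 and PGRP-SC2. They are 8 of the 13 PGRP genes in the RefSeq table and 8 of 14004 genes tested, and all 8 passed the filter of at least 3 GATC fragments.

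RNA polymerase II (Pol II) occupancy was measured by targeted DamID, in which a bacterial DNA adenine methyltransferase (Dam) marks GATC sites near the place it is brought to. All flies carried w-, dSRF-GAL4 with UAS-CD8GFP, and tub-GAL80ts, and expressed either UAS-LT3-Dam-Pol II or, as the control for each profile, UAS-LT3-Dam. The GAL4 line, named for the serum response factor, drives expression in terminal tracheal cells, the branched cells that reach the midgut, and the temperature-sensitive GAL80 holds it off in the cool. Adults were kept 7 days at 18 °C and then 24 hours at 29 °C, and for the last 16 hours they were fed sucrose with a bacterial solution labelled Pe (the damaged intestine) or sucrose alone, labelled Suc. Each library came from 60 pooled midguts with their tracheal cells, and the dissected tissue held other gut cells beside the tracheal cells. The 8 libraries gave 4 profiles, 2 of Pe and 2 of Suc, each giving every GATC fragment a log2 ratio, with Dam-Pol II above Dam in the fraction. A positive value means more signal with the Pol II fusion than with Dam alone. A gene's value, or level, is the mean log2 ratio over the bases from its start to its end.

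No counts are given, so depth is unknown, and n is 2 in each condition. Pe replicate 2 stood apart from the other profiles. Across genes its values correlated at 0.74 to 0.83 with theirs, against 0.90 to 0.93 among the other 3, and 26.0% of its fragments were listed at exactly 0, against 15.2% to 16.7%. Suc replicate 2 had the widest spread, with a 95th percentile of gene values of 2.06, against 1.24 and 1.48 in Pe and 1.33 in Suc replicate 1. The defining tracheal gene bs stood at 0.55 and 0.26 in Pe and at 0.84 and 1.13 in Suc. The 9 terminal tracheal markers averaged 0.37 and -0.078 under Pe and 0.59 and 0.75 under Suc, and the 12 enterocyte markers 0.75 and 0.49 in Pe and 1.23 and 1.09 in Suc. The enterocyte average thus exceeded the tracheal one in every profile, although the defining enterocyte gene nub was near 0, at 0.14 and -0.013 in Pe and 0.066 and -0.018 in Suc. The 3 intestinal progenitor markers averaged 0.068 and 0.025 in Pe and 0.22 and 0.30 in Suc, and their defining gene esg stood at 0.15 and 0.22 in Pe and 0.77 and 0.86 in Suc. The 6 haemocyte markers tested averaged between 0.011 and 0.070 in all 4 profiles, and the defining haemocyte gene Hml lay between -0.071 and -0.048. The part of these marker shifts in the results below was not tested. Dam and Dam-Pol II were expressed under the same driver, and whether it was also active in other gut cells was not tested. Among the cells that expressed them, a change in the mix of cells and a change in signal per cell cannot be told apart.

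Pol II signal stood at 4 of the 5 receptor genes and was low or absent at PGRP-SD, PGRP-SB1 and PGRP-SC2, with PGRP-LB in between. These low genes were also the shortest members, at 721, 691 and 746 bases, where the others ran from 1137 to 9527 bases. The part of gene length was not tested. Over the 5 receptors the median level was 0.79 and 0.59 under Pe and 0.96 and 1.08 under Suc. Over the 3 amidases it was 0.075 and 0.13 in Pe and 0.019 and -0.032 in Suc. The median of all genes tested was 0.058 and 0.094 in Pe and -0.0034 and 0.098 in Suc, so the amidase medians were at most 0.13 away from it and the receptor medians above it. Single genes departed from their group, as the receptor PGRP-SD lay below the median of all genes in every profile and the amidase PGRP-LB above it. The receptor median exceeded the amidase median by 0.59 ± 0.18 in Pe and by 1.02 ± 0.12 in Suc (SD over 2 profiles each). In Pe replicate 2 the amidase gene PGRP-LB lay above PGRP-LE, so 3 of 5 receptors exceeded every amidase there, against 4 of 5 in each other profile. No test was made between these groups of 5 and 3 genes, which share their profiles and are not replicates. PGRP-LC, PGRP-LF and PGRP-SA lay among the highest 25% of genes in all 4 profiles, where 16.3% of all genes did, and no member lay among the highest 10% in all 4, where 5.50% did.

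**Figure D1:**
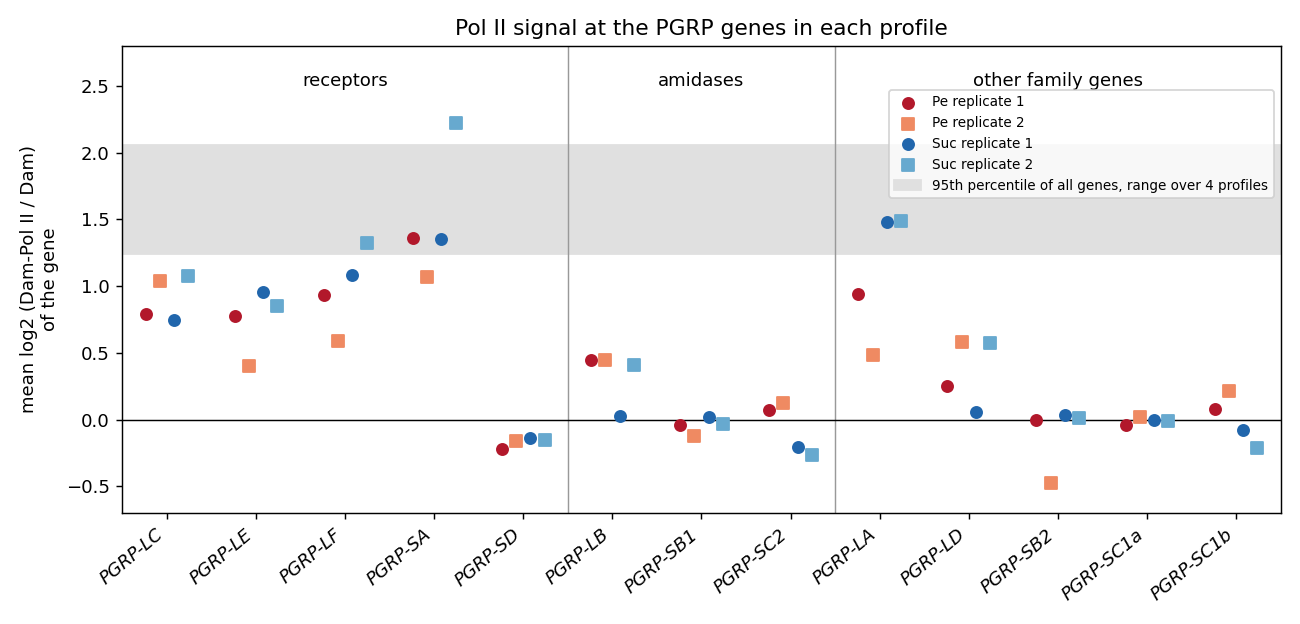
Level of each PGRP gene in each profile, as the mean log2 ratio over the gene's bases, with receptors, amidases and the other family genes side by side. Points are single profiles, Pe left of Suc within each gene, and the grey band spans the 95th percentile of all genes over the 4 profiles, from 1.24 to 2.06. PGRP-LC, PGRP-LE, PGRP-LF and PGRP-SA lie above 0.40 in every profile, and PGRP-SD lies below 0 in every profile.

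Each group mean was tested against 0 with limma, one-sided, and p-values were adjusted by Benjamini-Hochberg over all genes. At an adjusted p under 0.05, 2 members were called occupied in Pe, where 7.49% of all genes were, and 4 in Suc, where 21.2% were. The 2 in Pe were PGRP-LC and PGRP-LF, and the 4 in Suc were PGRP-LC, PGRP-LE, PGRP-LF and PGRP-SA. No amidase was called in either condition as reported, but PGRP-LB was called under other settings, given with its values. The calls of PGRP-LC and PGRP-LF in Pe lay at the edge of the threshold, as did the Pe calls of all genes. The smallest limma adjusted p of any gene in Pe was 0.0458. These counts of members depended on single profiles and changed whichever profile was left out. The counts over all genes changed as well, so this was not particular to the members. A higher count in one condition than in the other was not tested as a difference.

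PGRP-LC, on chromosome arm 3L from 9338810 to 9348336 in Release 6 coordinates, encodes the membrane receptor that starts Imd signalling. Its level was 0.79 and 1.04 in Pe and 0.74 and 1.08 in Suc. The groups overlapped, and within each condition replicate 2 was the higher. The adjusted limma p for occupancy was 0.0458 in Pe and 0.0250 in Suc. With all 4 profiles kept, both calls were lost with the median of the fragments (limma adjusted p = 0.077 in Pe and 0.066 in Suc). The Pe call was also lost with fragments of 1 gene (limma adjusted p = 0.053). The signal was uneven along the gene's 39 fragments, none of which it shares with another gene. The 16 fragments at the lower-coordinate end, 5348 bases, averaged 1.27 and 1.54 in Pe and 1.29 and 1.80 in Suc, and the 20 fragments that follow averaged 0.061 and 0.24 in Pe and -0.10 and -0.031 in Suc. The last 3 fragments were again positive, at 0.82 and 1.24 in Pe and 0.92 and 1.17 in Suc. These limits were set after the values were seen. The fragment with the highest mean over the profiles, 401 bases beginning 1638 bases from the lower end, stood at 2.49 and 1.71 in Pe and at 2.51 and 3.17 in Suc. Within the middle stretch the values varied, and a fragment of 347 bases stood at 0.86 and 0.79 in Pe and at -0.50 and 0.25 in Suc. The gene's mean of 0.91 averages these 3 unequal stretches.

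PGRP-LF, on 3L from 9349609 to 9351489, encodes a membrane protein that does not bind peptidoglycan and dampens signalling by its neighbour PGRP-LC. Its level was 0.93 and 0.59 in Pe and 1.09 and 1.33 in Suc, with both Pe profiles below both Suc profiles. The adjusted limma p for occupancy was 0.0489 in Pe and 0.0229 in Suc. With all 4 profiles kept, its Pe call was lost with no filter (limma adjusted p = 0.0520) and with 1 prior variance (0.0502). It was also lost with the median of the fragments (limma adjusted p = 0.092) and with fragments of 1 gene (0.053). The 4 fragments at its lower end, 709 bases, carried 2.17 and 1.49 in Pe and 2.46 and 2.90 in Suc. The other 4 averaged 0.18 and 0.042 in Pe and 0.26 and 0.37 in Suc, and 3 of them are shared with UGP, whose level was 0.33 and 0.35 in Pe and -0.097 and 0.51 in Suc. The fragment of 294 bases that begins 35 bases inside PGRP-LF had the highest mean of any fragment in the family, with 2.63 and 1.79 in Pe and 3.21 and 3.87 in Suc.

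PGRP-LA lies on the other side of PGRP-LC, on 3L from 9334332 to 9338336. It is a receptor-like gene of the family reported to act on Imd signalling in barrier epithelia, and was not among the 8. Its level was 0.94 and 0.48 in Pe and 1.48 and 1.48 in Suc, so that the 3 neighbouring genes were all positive in every profile. It was called occupied in Suc (limma adjusted p = 0.0216) and missed the threshold in Pe (limma adjusted p = 0.0543). All 17 of its fragments were above 0 in all 4 profiles, where 19.3% of the fragments of all genes were. Its most strongly marked fragment, 613 bases long, stood at 1.83 and 0.73 in Pe and at 2.59 and 4.16 in Suc.

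**Figure D2:**
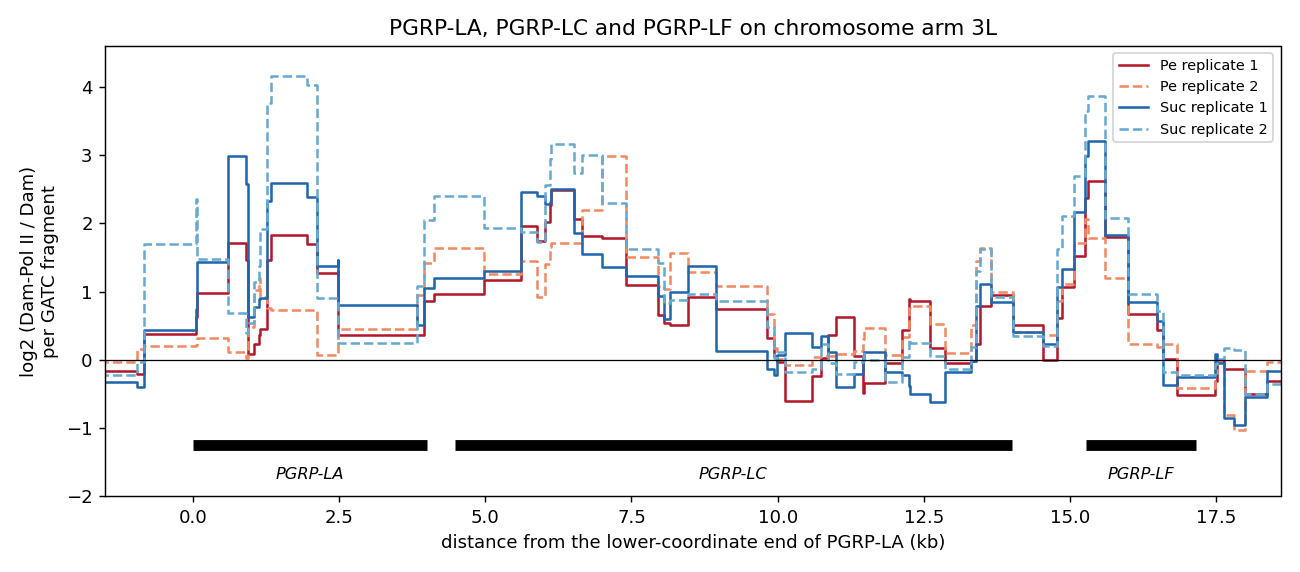
Log2 ratio (Dam-Pol II to Dam) of the fragments along PGRP-LA, PGRP-LC and PGRP-LF, against the distance in kb from the lower-coordinate end of PGRP-LA, with 1 line per profile and the genes as black bars. The lower-coordinate parts of PGRP-LC and PGRP-LF stand out in every profile, the 20 middle fragments of PGRP-LC average between -0.10 and 0.24, and the highest value over PGRP-LA belongs to Suc replicate 2 at 4.16.

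PGRP-LE, on X from 15801153 to 15803880, encodes a receptor that works inside cells and in secreted form, upstream of Imd. Its level was 0.77 and 0.40 in Pe and 0.96 and 0.85 in Suc, and both Pe profiles lay below both Suc profiles. It was called in Suc (limma adjusted p = 0.0250) and not in Pe (limma adjusted p = 0.0573). In Pe it was called after quantile normalization (limma adjusted p = 0.043), with the replicate block (0.029), without fragments at 0 (0.046) and, narrowly, without either Suc profile. Its 496-base fragment near the middle was the most strongly marked, at 1.32 and 1.04 in Pe and 2.34 and 1.30 in Suc. That was the only fragment of 11 above 1 in all 4 profiles, where 4.96% of the fragments of all genes were. The first and last fragments are shared with CG15602 and sd.

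PGRP-SA, on X from 11561643 to 11562779, encodes a circulating receptor that recognises bacteria for the Toll pathway. It had the highest mean level of the family in both conditions, with 1.36 and 1.07 in Pe and 1.36 and 2.23 in Suc. Suc replicate 2 stood well above the other 3 profiles, and the groups only just overlapped, since Pe replicate 1 and Suc replicate 1 were nearly equal. Within its own profile PGRP-SA ranked at the 96.2 and 89.4 percentile of all genes in Pe and at the 95.2 and 96.2 percentile in Suc. It was called in Suc (limma adjusted p = 0.0262) and not in Pe (limma adjusted p = 0.0588). In Pe it was called under 7 alternatives, among them median and MAD scaling (limma adjusted p = 0.0047), the replicate block (0.046) and leaving out either Suc profile (0.019). Of its 14 fragments 7 were above 1 in all 4 profiles, where 4.96% of the fragments of all genes were. A run of 5 short fragments inside the gene, 176 bases in all, averaged only 0.14 and 0.057 in Pe and 0.076 and 0.33 in Suc, between a lower end at 1.26 and 0.50 in Pe and 1.34 and 3.17 in Suc and an upper end at 1.65 and 1.42 in Pe and 1.65 and 2.44 in Suc. The gene ends next to Polr2A, the gene of the largest subunit of Pol II itself, which stood at 1.67 and 2.38 in Pe and 1.95 and 2.52 in Suc, and 1 fragment is common to both. The genes closest to PGRP-SA in their 4 values were CG15071, RhoL and Lamtor5, with root mean square differences of 0.045, 0.055 and 0.061 over the 4 profiles.

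PGRP-SD, on 3L from 7651180 to 7651900, encodes a secreted receptor that assists both pathways. It was the exception among the receptors, with levels of -0.22 and -0.16 in Pe and -0.14 and -0.15 in Suc. No fragment of its 5 was above 0 in all 4 profiles, where 19.3% of the fragments of all genes were. Its longest fragment, 432 bases, lay between -0.32 and -0.26 in all 4 profiles. The gene lies inside CG32373, and all its fragments are shared with that gene, whose own level was 0.031 and 0.030 in Pe and -0.034 and 0.020 in Suc.

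PGRP-LB, on 3R from 11452849 to 11460552, encodes the amidase that is best known for limiting Imd signalling in the gut and beyond it. It was the only amidase above 0 in all 4 profiles, which held for 37.8% of all genes. Its level was 0.45 and 0.45 in Pe and 0.027 and 0.41 in Suc, so that the groups did not overlap and Pe was higher, although Suc replicate 2 was within 0.04 of them. It missed the occupancy threshold in Pe (limma adjusted p = 0.0725) and in Suc (limma adjusted p = 0.202). That call turned in Pe under median and MAD scaling (limma adjusted p = 0.017), after quantile normalization (limma adjusted p = 0.0058) and without either Suc profile (limma adjusted p = 0.029), and in Suc without Suc replicate 1 (limma adjusted p = 0.049). Signal was found in 2 places. The 5 fragments at the lower end averaged 0.66 and 1.25 in Pe and 0.30 and 1.12 in Suc. A pair of inner fragments, 1032 bases together, averaged 0.97 and 1.84 in Pe and -0.062 and 1.01 in Suc. The 1413-base fragment between these places ranged from -0.17 to 0.63 over the profiles. No fragment of the gene's 19 was above 1 in all 4 profiles, where 4.96% of the fragments of all genes were. The whole gene lies inside CG17230, so the signal of these overlapping genes cannot be separated, and CG17230 as a whole stood at 0.083 and 0.18 in Pe and -0.11 and -0.034 in Suc.

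PGRP-SB1, on 3L from 16727299 to 16727989, encodes a secreted amidase. Its level was -0.041 and -0.12 in Pe and 0.019 and -0.032 in Suc. No fragment of its 8 was above 0 in all 4 profiles, where 19.3% of the fragments of all genes were. At least 1 profile was listed at exactly 0 in 4 of the 8 fragments, where this held for 23.1% of the fragments of all genes. Its lowest value, -0.70 in Pe replicate 2, belongs to the fragment it shares with PGRP-SB2, its close neighbour, which stood at -0.0006 and -0.48 in Pe and 0.032 and 0.012 in Suc.

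PGRP-SC2, on 2R from 8716950 to 8717695, encodes a gut amidase. Its level was 0.075 and 0.13 in Pe and -0.20 and -0.27 in Suc. The groups did not overlap and lay on opposite sides of 0, but the Pe level was close to the median of all genes, at the 51.8 and 53.5 percentile, and the Suc level was at the 17.9 and 6.32 percentile. It was not called occupied in Pe (limma adjusted p = 0.233) or in Suc (limma adjusted p = 1.0). The last fragment, 205 bases, differed most, with 0.14 and 0.40 in Pe and -0.27 and -0.67 in Suc.

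**Figure D3:**
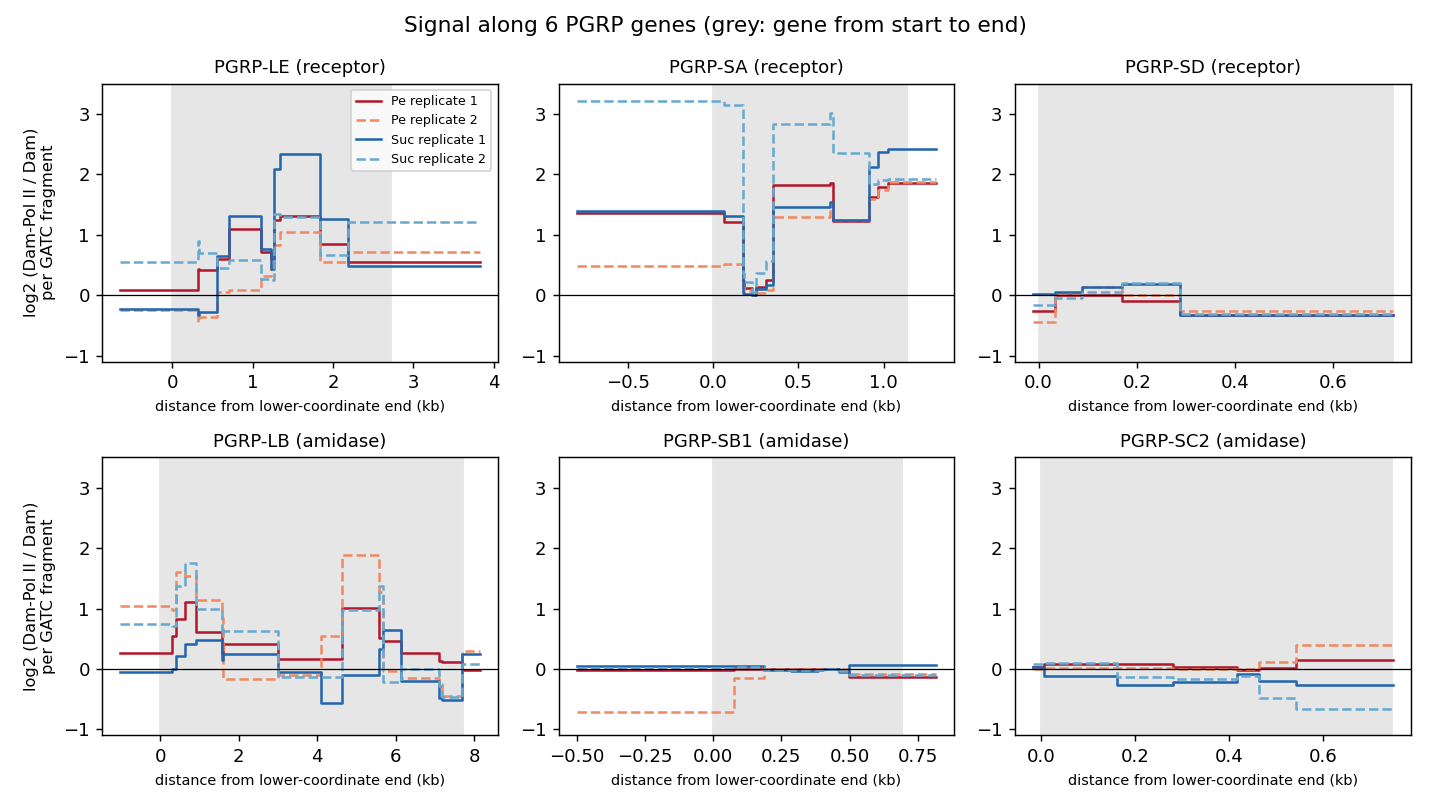
Log2 ratio per GATC fragment along PGRP-LE, PGRP-SA, PGRP-SD, PGRP-LB, PGRP-SB1 and PGRP-SC2, against the distance in kb from each gene's lower-coordinate end, with 1 line per profile on the same vertical scale. PGRP-SA is marked at both ends with a low stretch between, PGRP-LB in 2 places, and PGRP-SD, PGRP-SB1 and PGRP-SC2 stay between -0.70 and 0.40.

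In order of level the Pe means ran PGRP-SA, PGRP-LC, PGRP-LF, PGRP-LE, PGRP-LB, PGRP-SC2, PGRP-SB1 and PGRP-SD. The profiles of PGRP-LC, PGRP-LF, PGRP-LE and PGRP-LB overlapped between neighbours in that order, so these steps were within the spread. In Suc the order was PGRP-SA, PGRP-LF, PGRP-LC, PGRP-LE, PGRP-LB, PGRP-SB1, PGRP-SD and PGRP-SC2, and only PGRP-LC and PGRP-LE overlapped as neighbours. Of the remaining family genes, PGRP-LD stood at 0.25 and 0.58 in Pe and 0.055 and 0.57 in Suc. The amidase genes PGRP-SC1a and PGRP-SC1b lay near 0. PGRP-SC1a had -0.043 and 0.018 in Pe and -0.0034 and -0.012 in Suc, and PGRP-SC1b had 0.083 and 0.21 in Pe and -0.077 and -0.21 in Suc. These 2 neighbouring genes are near-identical copies, and 4 of their 5 fragments have the same lengths in the same order. Reads may have been divided between them, and their values are uncertain.

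The second question was whether feeding Pe altered occupancy at these genes. No member differed between Pe and Suc in the two-sided limma test with Benjamini-Hochberg adjustment over all genes, where 0 of 14004 genes were called higher and 0 lower, and the smallest adjusted p was 0.897. At an unadjusted p under 0.05 there were 232 genes with a higher and 318 with a lower mean in Pe, 1.66% and 2.27% of all genes. PGRP-SC2 was the only member among them. The intervals of the differences were wide, and a missing call does not show equal occupancy.

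Among the receptors the difference of Pe minus Suc was 0.0029 (SE 0.17) at PGRP-LC, with a 95% interval from -0.51 to 0.52. It was -0.31 (SE 0.17) at PGRP-LE, with an interval from -0.82 to 0.19. At PGRP-LF it was -0.45 (SE 0.18; interval -0.99 to 0.091), and at PGRP-SA -0.58 (SE 0.36; interval -1.66 to 0.51). The value at PGRP-SD was -0.042 (SE 0.081). Of the amidases, PGRP-LB had 0.23 (SE 0.17; interval -0.27 to 0.72), PGRP-SB1 -0.077 (SE 0.087) and PGRP-SC2 0.34 (SE 0.085; interval 0.083 to 0.59). PGRP-LA, outside the 8, had the largest difference of the family at -0.77 (SE 0.19; interval -1.35 to -0.19; unadjusted p = 0.0229, limma adjusted p = 0.897). Differences were negative at 4 of 5 receptors and 1 of 3 amidases, and at 45.3% of all genes.

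**Figure D4:**
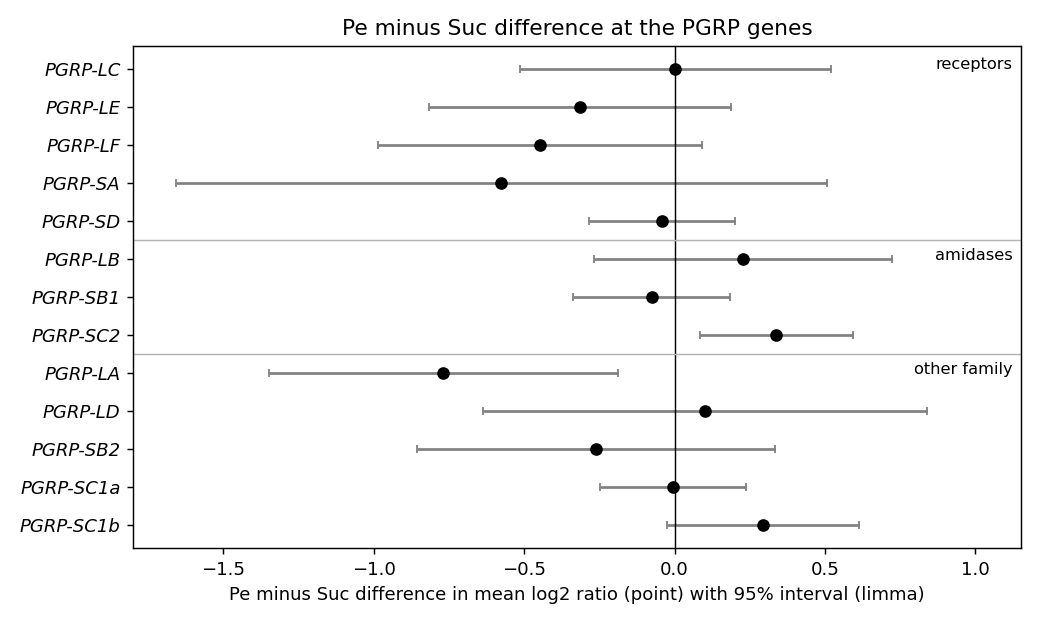
Difference in mean log2 ratio of Pe minus Suc for each PGRP gene, with the 95% interval from limma (2 profiles per condition). The intervals of PGRP-SC2, from 0.083 to 0.59, and PGRP-LA, from -1.35 to -0.19, do not include 0, but neither passed the adjustment over all genes.

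Both Pe profiles lay below both Suc profiles at 4 members, PGRP-LE, PGRP-LF, PGRP-SD and PGRP-SB1, where this held for 14.0% of all genes. They lay above at 2 members, PGRP-LB and PGRP-SC2, where it held for 23.0%. At PGRP-SD and PGRP-SB1, neither called occupied in either condition, the conditions were barely apart. PGRP-SD had -0.157 in Pe replicate 2 and -0.153 in Suc replicate 2. PGRP-SB1 had -0.041 in Pe replicate 1 and -0.032 in Suc replicate 2. The count of members below depended on the scaling of the profiles. When every gene was ranked within its own profile, PGRP-SD and PGRP-SB1 stayed below and PGRP-LE and PGRP-LF overlapped, and the genes above were PGRP-LC, PGRP-LB and PGRP-SC2. The background then was 18.0% below and 18.1% above. Scaling each profile by its median and its median absolute deviation (MAD) gave the same members. The difference at PGRP-SA, -0.58 as reported, was -0.29 under median and MAD scaling, -0.14 without Suc replicate 2 and -1.01 without Suc replicate 1. At PGRP-LB, 0.23 as reported, it was 0.038 without Suc replicate 1 and 0.42 without Suc replicate 2. Without Pe replicate 2 the differences were -0.12 at PGRP-LC, -0.13 at PGRP-LE, -0.28 at PGRP-LF, -0.43 at PGRP-SA, -0.074 at PGRP-SD, 0.23 at PGRP-LB, -0.035 at PGRP-SB1 and 0.31 at PGRP-SC2.

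Fragment by fragment, the direction was not uniform within a gene. In PGRP-LF both Pe profiles lay below both Suc profiles at 7 of 8 fragments, in PGRP-LA at 7 of 17 and in PGRP-SA at 6 of 14, where 12.1% of the fragments of all genes did. In PGRP-LC they lay below at 6 of 39 fragments and above at 12, where 23.0% of the fragments of all genes lay above. In PGRP-SC2 they lay above at 5 of 7 fragments and in PGRP-LB at 4 of 19. PGRP-SB1, whose mean was lower in both Pe profiles, had 2 of 8 fragments below and 4 above. Most of those 4 were listed at exactly 0 in both Pe profiles, beside Suc values between -0.033 and -0.012. PGRP-LE had 1 of 11 below and 1 above, and PGRP-SD had 2 of 5 below and 0 above. Neighbouring fragments often carry nearly the same value and are not independent.

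The pathways that these receptors feed were compared by lists of their other components. Of 20 Imd genes 6 were called occupied in Pe and 10 in Suc, where 7.49% and 21.2% of all genes were, and the median level was 0.60 in Pe and 0.75 in Suc, beside 0.072 and 0.038 over all genes. The highest by the mean of all 4 profiles were Tab2, which encodes the partner of the kinase Tak1, and pirk, which encodes an inhibitor that binds PGRP-LC and PGRP-LE. Tab2 stood at 1.58 and 2.11 in Pe and 1.62 and 2.53 in Suc, and pirk at 1.51 and 1.29 in Pe and 1.92 and 2.61 in Suc. The difference at pirk, the largest of the list, was -0.87 (SE 0.29; limma adjusted p = 0.897), with both Pe profiles below both Suc profiles.

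Of 15 Toll genes 2 were called occupied in Pe and 5 in Suc, beside the same 7.49% and 21.2% of all genes, with a median level of 0.37 in Pe and 0.31 in Suc. The adaptor gene Myd88 stood at 1.39 and 1.68 in Pe and 1.31 and 1.97 in Suc, and spz, the gene of the Toll ligand, at 1.11 and 1.65 in Pe and 1.25 and 1.32 in Suc. The largest difference was at modSP, a protease gene upstream of spz, at -0.55 (SE 0.20; limma adjusted p = 0.897). In either list 0 genes passed the limma test of Pe against Suc, and at an unadjusted p under 0.05 there were 1 higher and 2 lower Imd genes and 0 higher and 1 lower Toll gene, beside 1.66% higher and 2.27% lower among all genes.

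Antimicrobial peptide genes, the classic targets of both pathways, showed little signal where they could be tested. Of 14 genes 9 had at least 3 fragments. Of these 0 were called occupied in Pe, where 7.49% of all genes were, and 0 in Suc, where 21.2% were. At an unadjusted limma p under 0.05 there was 1 in Pe and 0 in Suc, beside 4549 and 4751 of all 14004 genes. The 1 in Pe was CecB, a cecropin gene, whose level was 0.20 and 0.28 in Pe and 0.029 and -0.079 in Suc. AttB, an attacin gene, stood at -0.21 and 0.30 in Pe and 0.10 and 0.16 in Suc. The median level of the 9 was -0.050 in Pe and -0.062 in Suc. The other 5 peptide genes lie on only 1 or 2 fragments and were not tested. Of these CecC, Drs and Mtk, named after their values were seen, were positive in all 4 profiles, with Drs, the gene of the antifungal peptide drosomycin, at 0.87 and 1.24 in Pe and 0.66 and 1.99 in Suc. The low median of the 9 therefore does not describe the whole peptide family.

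**Figure D5:**
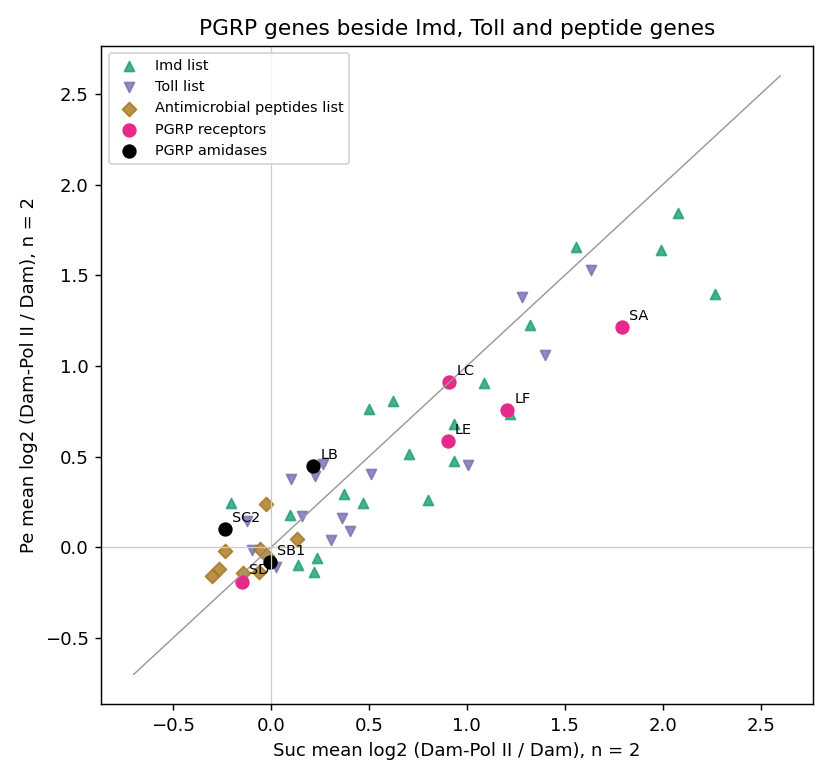
Mean level in Pe (vertical) against mean level in Suc (horizontal), both as log2 ratios with n = 2, for the PGRP receptors and amidases and for the genes of the Imd, Toll and antimicrobial peptide lists, with the line of equal values. PGRP-SA, PGRP-LF, PGRP-LC and PGRP-LE lie among the Imd genes, while PGRP-SD, PGRP-SB1 and PGRP-SC2 lie with the 9 tested peptide genes near 0.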

How the data were processed

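The authors deposited 1 profile for each condition and replicate. Their range, and the Dam control that the labels pair with each fusion, led to the deposited values being read as log2 ratios (Dam-Pol II to Dam). How reads were aligned, scaled and divided, and the log base, is not given in the sources used here. The build is BDGP 6, per the submitters' processing notes. A profile was matched to its condition and replicate through the labels, although the file for Suc replicate 2 bears track number 3.

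Genes came from a RefSeq Release 6 table without strand, exons or sequence, so positions are given from the lower-coordinate end. The 28 mitochondrial fragments were left out, which left 383654. A gene's value is the mean log2 ratio of the overlapping fragments, weighted by overlap length. Of 15941 genes 14100 had at least 3 fragments, and 96 at 0 in all profiles were left out, which left 14004.

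The tests used limma 3.58.1 (R 4.3.3), pooling the spread of both conditions and letting the prior variance follow the fragment number, Pe against Suc two-sided and each mean against 0 one-sided, at an adjusted p under 0.05. The labels call the replicates biological. On simulated profiles of Pe against Suc with 14004 genes, the fit recovered 25 of 100 genes shifted by 1 and 83 of 100 shifted by 2, and made 4 false calls. The simulated noise was independent between genes and profiles, with the spread taken from the same fit. It left out the shared deviations of the real profiles, so these figures need not hold for the real data. Values were computed in Python 3.11.15 with pandas 2.3.3. A fragment is called high above 1. Members and lists were chosen with earlier results of these data known. Named genes are the family, genes sharing a fragment with a member, the 3 nearest to the highest member, the first gene of each marker list and, per pathway list, the 2 highest and the 1 with the largest difference. The marker lists of enteroendocrine cells, fat body and muscle averaged between -0.013 and 0.61 over the profiles, with the defining genes pros, Lsp2 and Mhc between -0.075 and 0.31. Alternatives were other scalings, filters and gene values, fragments of 1 gene, 1 prior variance, a replicate block and leaving out each profile. Leaving out fragments at exactly 0, and ranks within a profile, were chosen after seeing the data.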

Additional observations from a re-analysis of the deposited data

How the results depend on the processing

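With 2 profiles per condition and unknown depth, only large differences could be called, and occupancy calls changed with the setting. Only 4 members of 7836 genes were tested with at least 10 fragments, and 6 members of 11203 genes with fragments of 1 gene. The count of members occupied in Pe, 2 of 8 as reported, was 4 under median and MAD scaling and with the replicate block. It was 5 after quantile normalization, 4 without fragments at exactly 0, and 1 with no filter, with at least 10 fragments and with 1 prior variance. It was 0 with the median of the fragments and with fragments of 1 gene, and 0 to 5 when a profile was left out. In Suc, 4 as reported, leaving out a profile gave 0 to 5. Over all genes the Pe count of 1049 was 3689 under median and MAD scaling, 4376 after quantile normalization, 293 with at least 10 fragments, 0 with the median of the fragments (2987 at an unadjusted p under 0.05), 94 with fragments of 1 gene, 3292 with the replicate block, 2012 without fragments at 0, and 0 to 3311 when a profile was left out. The Suc count of 2974 was 1638 with at least 10 fragments, 1010 with the median of the fragments and 0 to 3943 when a profile was left out. With no filter the Pe count was 807 of 15753 genes, and with 1 prior variance 874 of 14004. The cause of these changes was not tested.

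No alternative called a member or any other gene between Pe and Suc. Of the 318 comparisons of the members' values with an alternative, 272 kept their direction and side of the threshold. A call was lost in 22 and gained in 17, and 7 reversed. Several alternatives changed only the genes tested or the spread and left the members' values as they were. Many of the 272 therefore could not have reversed, and their number is no measure of stability. At PGRP-LC the difference ran from -0.16 to 0.17 when a profile was left out. With the median of the fragments PGRP-SB1 had a difference of 0.0071 and PGRP-SD a Suc mean of 0.00089. The Suc mean of PGRP-SB1 was 0.038 after quantile normalization, 0.00016 without fragments at 0, and -0.032 to 0.019 when a profile was left out. Outside the 8, PGRP-LD had differences of -0.16 to 0.36 when a profile was left out, PGRP-SB2 a Suc mean of -0.015 under median and MAD scaling, and PGRP-SC1a a difference of 0.0032 with unweighted means and of -0.035 to 0.026 when a profile was left out, a Pe mean of -0.043 to 0.018 when a profile was left out, and Suc means of 0.025 after quantile normalization and 0.0044 with the median of the fragments.

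From the means per condition, the receptor median exceeded the amidase median by 0.66 in Pe and 0.92 in Suc. With at least 10 fragments, PGRP-LC, PGRP-LE and PGRP-SA were the only receptors left and PGRP-LB the only amidase. In Pe the receptor excess was then 0.47. It was 1.0 with fragments of 1 gene and 0.46 to 0.71 when a profile was left out. In Suc it was 0.69 with at least 10 fragments, 0.78 with unweighted means, 0.67 with the median of the fragments, 1.52 with fragments of 1 gene and 0.92 to 1.11 when a profile was left out. PGRP-LB and PGRP-SD have no fragment of their own, and neither has a value with fragments of 1 gene. Same-numbered profiles deviated together with a correlation of 0.28 over genes, but the labels name no shared batch. The alternative over the gene start was not run, because the table gives no strand.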
